A study of Mus musculus with 8 samples.

Results

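The genes described here are the transcription factors that drive fat cell formation and the hormones that fat cells secrete. They were taken by symbol: Pparg, Cebpa, Cebpb, Cebpd, Adipoq, Cfd, Retn, Lep, Lcn2 and Adipor2, with every probe that carries the symbol. Of the 10 genes, 9 had a probe, 14 probes in all among the 45281 probes and 19057 named genes measured, and Cfd (adipsin, a complement protease of fat cells) was not analysed here. Of the 14 probes, 9 reached a deposited log2 value of 6, the level used here for detection, on at least 1 array, 5 reached it on all 8 arrays, and 5 on no array.

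RNA came from C57BL/6J mouse adult bone marrow mesenchymal stem cells (MSCs), multipotent stromal cells that can form fat, cartilage and bone cells, and was measured on 8 Illumina arrays. There were 2 arrays of undifferentiated MSCs, titled d0 and p4. Cells differentiated from them had 1 array per lineage, namely adipocytes titled d7, chondrocytes titled d28 and osteocytes titled d21. Reprogrammed adipocytes, chondrocytes and osteocytes, titled p1, also had 1 array each. The labels give no meaning for the letters d and p, no differentiation medium and no reprogramming agent. They do not state whether separate cultures or animals lie behind the arrays, so a p-value here covers the spread between these arrays only. Lineages stand as the replicates of a state, so that spread joins differences between lineages with any technical spread. The arrays with p in the title held 6815 to 7652 probes at the floor of 0, against 4317 to 5204 on the arrays with d. All differentiated arrays carry d and all reprogrammed arrays carry p, and the 2 sets are joined only through the MSC array in each. Of 8 adipocyte marker genes with a probe, 3 of them members (Pparg, Cebpa and Adipoq), all 8 reached the level of 6 on the differentiated adipocyte array, against 2 to 4 on the others. The array labelled differentiated chondrocytes had 5 of 6 osteoblast markers and 4 of 11 macrophage markers at that level, and 3 of 7 chondrocyte markers. The array labelled differentiated osteocytes had 3 of 6 osteoblast markers at that level, against 2 on MSC d0 and 3 on MSC p4. The log2 of their summed signal was 9.77 on differentiated osteocytes, 10.98 and 10.36 on the MSC arrays, 14.49 on differentiated chondrocytes and 7.28 on differentiated adipocytes.

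Fat cell formation runs through a cascade of transcription factors. Cebpb and Cebpd, C/EBP family members that hormonal inducers such as glucocorticoids and cyclic AMP switch on early, activate Pparg and Cebpa. Pparg encodes a nuclear receptor and Cebpa a further C/EBP protein. These 2 factors maintain each other's expression and turn on the genes of lipid storage and of the secreted products of the fat cell. Among these products, adiponectin (Adipoq) sensitises liver and muscle to insulin through receptors such as Adipor2, leptin (Lep) reports fat stores to the brain, and resistin (Retn) opposes insulin in the mouse. Lipocalin 2 (Lcn2) binds bacterial siderophores and is made by fat cells, by neutrophils and by inflamed epithelia. Marrow stromal cells are known to contain cells that already express several of these genes before any differentiation.

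Promoters are shown for 1 regulator, Pparg, for Adipoq and Lcn2, whose levels differ most across the arrays, and for Lep, which stayed below the level of 6 on every array. C/EBP factors are known regulators of this class of gene, and these are windows chosen because they hold a match to the motif searched. They are the RefSeq sequences of assembly GRCm38.p6, 250 bases before to 50 bases after the start, printed 5′ to 3′ on the gene's strand. Capitals mark matches to TTNNGNAA, a loose form of the C/EBP palindrome, searched on both strands. For Pparg, the start shown is the third of 3 in the table.

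Pparg, start 3, chr6:115421816-115422115, plus strand: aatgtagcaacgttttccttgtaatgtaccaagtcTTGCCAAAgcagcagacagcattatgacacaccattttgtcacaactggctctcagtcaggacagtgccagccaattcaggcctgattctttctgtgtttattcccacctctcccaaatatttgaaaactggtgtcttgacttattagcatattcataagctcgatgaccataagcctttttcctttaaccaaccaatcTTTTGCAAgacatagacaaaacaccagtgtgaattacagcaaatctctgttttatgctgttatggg

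Adipoq, chr16:23146286-23146585, plus strand: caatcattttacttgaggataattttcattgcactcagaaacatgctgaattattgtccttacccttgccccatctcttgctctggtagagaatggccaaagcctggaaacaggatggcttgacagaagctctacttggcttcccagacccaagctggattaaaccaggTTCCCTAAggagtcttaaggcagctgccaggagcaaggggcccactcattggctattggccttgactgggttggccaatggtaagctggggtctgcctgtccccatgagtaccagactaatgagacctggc

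Lcn2, chr2:32387690-32387989, minus strand: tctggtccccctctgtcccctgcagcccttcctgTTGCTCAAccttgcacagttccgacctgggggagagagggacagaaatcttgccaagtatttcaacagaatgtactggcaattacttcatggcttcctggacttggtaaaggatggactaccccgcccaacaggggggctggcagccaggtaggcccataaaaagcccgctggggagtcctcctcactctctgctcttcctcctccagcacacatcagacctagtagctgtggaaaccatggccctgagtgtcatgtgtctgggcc

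Lep, chr6:29059971-29060270, plus strand: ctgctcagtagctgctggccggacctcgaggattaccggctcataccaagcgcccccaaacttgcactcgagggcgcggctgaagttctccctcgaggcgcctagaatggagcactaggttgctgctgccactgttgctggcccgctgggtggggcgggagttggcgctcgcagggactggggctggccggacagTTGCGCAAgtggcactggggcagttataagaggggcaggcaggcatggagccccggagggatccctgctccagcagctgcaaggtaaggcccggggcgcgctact

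The Pparg window held 2 matches, TTGCCAAA at position -215 and TTTTGCAA at -16 from the start. The match was TTCCCTAA at -81 for Adipoq, TTGCTCAA at -216 for Lcn2 and TTGCGCAA at -55 for Lep, each position being that of the first base. Such a match lies in 40.7% of the 32851 promoter windows of this length, so its presence here is a description of the letters only. The hexamer AGGTCA, the core that PPARs and other nuclear receptors bind (16.3% of windows), was found at Pparg starts 1 and 2. The TATA letters TATAAA (13.6% of windows), also searched on both strands, were found at -30 for Cebpa and at 22, after the start, for Cebpb. At Pparg start 2 they lay on the opposite strand, reading TTTATA at -29 on the gene's strand. In all, 11 windows of 9 members were in the table, and 5 of the 11 held a C/EBP match, the fifth being that of Adipor2. The other 6, of Cebpa, Cebpb, Cfd, Retn and Pparg starts 1 and 2, held none.

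Levels are deposited log2 values, and each probe is compared only with itself across arrays. Of the 9 member probes at the level of 6 on at least 1 array, 8 had their highest value on the differentiated adipocyte array, as did 25.1% of all such probes in the series. The exception was the brighter of the Cebpd probes. Differences are given as log2 of the deposited signal plus an offset of 16, which understates the change of dim probes. Each differentiated or reprogrammed cell type had 1 array, so a difference between cell types has no replicate check and no test. A probe was counted as higher or lower where the log2 difference was at least 1, which is 2-fold, against each array of the other side. Values under 6 enter these counts as measured. Where setting every value under 6 to 6 changes a count of members or listed genes in the text, the changed count is also given. That setting was added after the values had been seen. A difference that involves a value under 6 is that of the measured signals, and its ratio has only a bound.

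**Figure D1:**
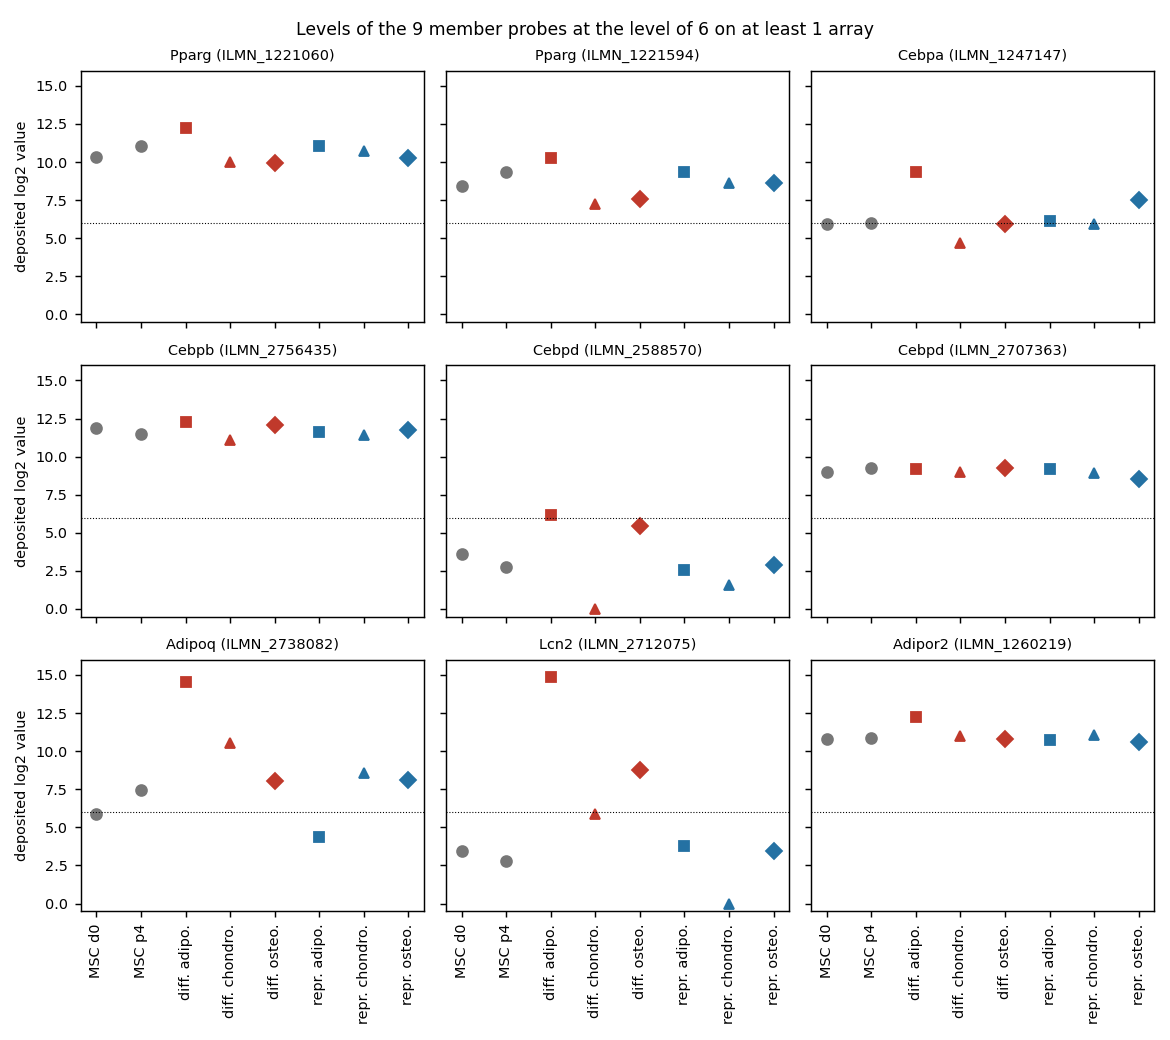
Deposited log2 values (y axis) of the 9 member probes that reached 6 (dotted line) on at least 1 array, with 1 point per array (x axis). Grey circles are MSCs, red symbols differentiated and blue symbols reprogrammed cells, with squares for adipocytes, triangles for chondrocytes and diamonds for osteocytes. Adipoq and Lcn2 stand highest on the differentiated adipocyte array, at 14.56 and 14.87, while Cebpb stays between 11.07 and 12.30.

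Pparg was measured by 3 probes. Probe ILMN_1221060 read 10.33 on MSC d0 and 11.05 on MSC p4, then 12.26, 9.98 and 9.97 on differentiated adipocytes, chondrocytes and osteocytes, and 11.06, 10.73 and 10.26 on reprogrammed adipocytes, chondrocytes and osteocytes. Pparg was thus at a clear level on every array, undifferentiated cells included, with differentiated adipocytes highest and the other differentiated cells lowest. Probe ILMN_1221594 read 8.40 and 9.35 on the MSC arrays, 10.24, 7.26 and 7.56 on the differentiated arrays in the same order, and 9.37, 8.65 and 8.60 on the reprogrammed arrays. It gave nearly the same order (Pearson r = 0.936, Spearman rho = 0.952 over 8 arrays that share their normalization). The third probe, ILMN_1221893, stayed below 6 throughout, between 0.28 and 4.95.

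Against the mean of the MSC arrays, Pparg in differentiated adipocytes was higher by 1.56 with the first probe and by 1.34 with the second, and 0.88 against the nearer MSC array with the second, which was therefore not counted as higher. In differentiated chondrocytes and osteocytes the second probe was lower than the MSC mean, with differences of -1.52 and -1.25, and the first probe differed by -0.70 and -0.72. The MSC arrays themselves differed by 0.71 and 0.92, with p4 higher. Reprogrammed adipocytes differed from the MSC mean by 0.36 with the first probe and 0.48 with the second. From the nearer MSC array, p4, which also carries p in its title, they differed by 0.0044 and 0.022.

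Cebpa, which locks in the fat cell state together with Pparg, read 5.96 on MSC d0, 6.00 on MSC p4 and 9.38 on differentiated adipocytes. The differentiated chondrocytes and osteocytes read 4.69 and 5.94, and the reprogrammed adipocytes, chondrocytes and osteocytes 6.14, 5.91 and 7.48. Differentiated adipocytes stood apart from all other arrays, reprogrammed osteocytes came next, and the other 6 arrays lay between 4.69 and 6.14. The difference was 3.10 between differentiated adipocytes and the MSC mean, an 8.60-fold ratio on the offset scale, and 1.30 between reprogrammed osteocytes and the MSC mean.

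Of the early factors, Cebpb ranged over 1.24 on the log2 scale across the 8 arrays and the brighter Cebpd probe over 0.73. Cebpb read 11.87 and 11.49 on the MSC arrays, 12.30, 11.07 and 12.10 on differentiated adipocytes, chondrocytes and osteocytes, and 11.64, 11.45 and 11.72 on their reprogrammed counterparts. It was high everywhere, and differentiated adipocytes differed from the MSC mean by 0.62 and differentiated chondrocytes by -0.62. Cebpd by its brighter probe, ILMN_2707363, read between 8.52 in reprogrammed osteocytes and 9.25 in differentiated osteocytes, and differentiated adipocytes differed from the MSC mean by 0.08. The dim Cebpd probe ILMN_2588570 read 6.20 on differentiated adipocytes, 5.44 on differentiated osteocytes, 0 on differentiated chondrocytes and 1.56 to 3.58 elsewhere. The 2 Cebpd probes did not follow each other (Pearson r = 0.332, Spearman rho = 0.262 over 8 arrays), so a difference in Cebpd depends on the probe.

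Adipoq, the adiponectin gene, differed in level between most of the arrays. It read 5.89 on MSC d0 and 7.47 on MSC p4, then 14.56 on differentiated adipocytes, 10.55 on differentiated chondrocytes and 8.07 on differentiated osteocytes. Reprogrammed adipocytes read 4.35, reprogrammed chondrocytes 8.58 and reprogrammed osteocytes 8.13. The highest and the lowest of the 8 arrays were thus the differentiated and the reprogrammed cells of the same, adipocyte, lineage. Differentiated adipocytes were 7.64 above the MSC mean and 6.96 above the nearer MSC array. Differentiated chondrocytes were 3.65 above the mean, and differentiated osteocytes 1.24, which is less than the 1.36 between the MSC arrays. In bulk RNA such as this, more cells of a type and more RNA per cell cannot be told apart.

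Lcn2 read 3.42 and 2.80 on the MSC arrays, both below 6. Differentiated adipocytes read 14.87, differentiated osteocytes 8.78 and differentiated chondrocytes 5.90. The reprogrammed adipocytes, osteocytes and chondrocytes read 3.76, 3.48 and 0. Every differentiated array was above every MSC and reprogrammed array, and only differentiated adipocytes and osteocytes reached the level of 6. Differentiated adipocytes were at least 374-fold and differentiated osteocytes at least 5.68-fold above MSCs. These are lower bounds that set the brighter value against the level of 6.

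Since neutrophils are a known source of Lcn2, their markers were read beside it. Of the 7 other neutrophil markers, not counting Lcn2 and Cebpe, S100a8 (7.85) and Mpo (7.21) reached the level of 6 on the differentiated adipocyte array and none did on another array. The log2 of their summed signal was 8.96 on differentiated adipocytes, 6.46 to 6.97 on the other differentiated arrays, 6.15 and 6.71 on the MSC arrays and 6.33 to 6.69 on the reprogrammed arrays. S100a9, under 6 on every array, was at 0 on MSC p4 and on all 3 reprogrammed arrays, the set with more probes at 0 in general. On the differentiated osteocyte array, where Lcn2 was at 8.78, none of these 7 markers reached the level of 6. The part of neutrophil RNA in the Lcn2 value of the adipocyte array was not tested.

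Adipor2, an adiponectin receptor expressed in many tissues, read 10.80 and 10.88 on the MSC arrays, 12.27 on differentiated adipocytes, 11.01 and 10.80 on differentiated chondrocytes and osteocytes, and 10.72, 11.08 and 10.60 on reprogrammed adipocytes, chondrocytes and osteocytes. The differentiated adipocyte array was apart from 7 arrays that lay within a narrow band, with a difference of 1.42 from the MSC mean. The other Adipor2 probes were below 6 on every array. Lep read 4.62 to 5.70 and Retn 0 to 4.92, so leptin and resistin were not above the level of 6 on any array, the differentiated adipocytes (5.67 and 4.92) included.

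By size, 6 of the 9 member probes were higher in differentiated adipocytes than in both MSC arrays and none was lower, where 9.42% of all 15568 probes at level were higher and 9.73% lower. By gene this was 5 of 7. With values under 6 set to 6, 5 of the 9 probes were higher, beside 7.77% of all, since the dim Cebpd probe reached the level only on the differentiated adipocyte array and has a bound of 1.12-fold. In differentiated chondrocytes 2 probes were higher (Adipoq and Lcn2) and 1 lower (Pparg, second probe), beside 5.86% and 3.69% of all probes. Lcn2 was under 6 on all arrays of that comparison, and with values under 6 set to 6 only Adipoq was higher (4.37% of all). In differentiated osteocytes 2 were higher (Lcn2 and the dim Cebpd probe) and none lower, beside 3.97% and 2.77%. The dim Cebpd probe was under 6 on all arrays of that comparison, and with values under 6 set to 6 only Lcn2 was higher (3.04% of all). Differentiated adipocytes exceeded both other differentiated arrays in 6 of the 9 probes and lay below both in none, beside 8.99% and 9.15% of all probes, with a difference from their mean of 2.27 and 2.72 for Pparg and 5.20 for Adipoq. Cebpa, under 6 on both of those arrays, was at least 8.52-fold higher. Between the MSC arrays 1 member probe, Adipoq, differed by this size, with p4 higher by 1.36 (MSC d0 being under 6, a bound of 2.42-fold), beside 6.9% of all probes higher on p4 and 7.35% lower.

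**Figure D2:**
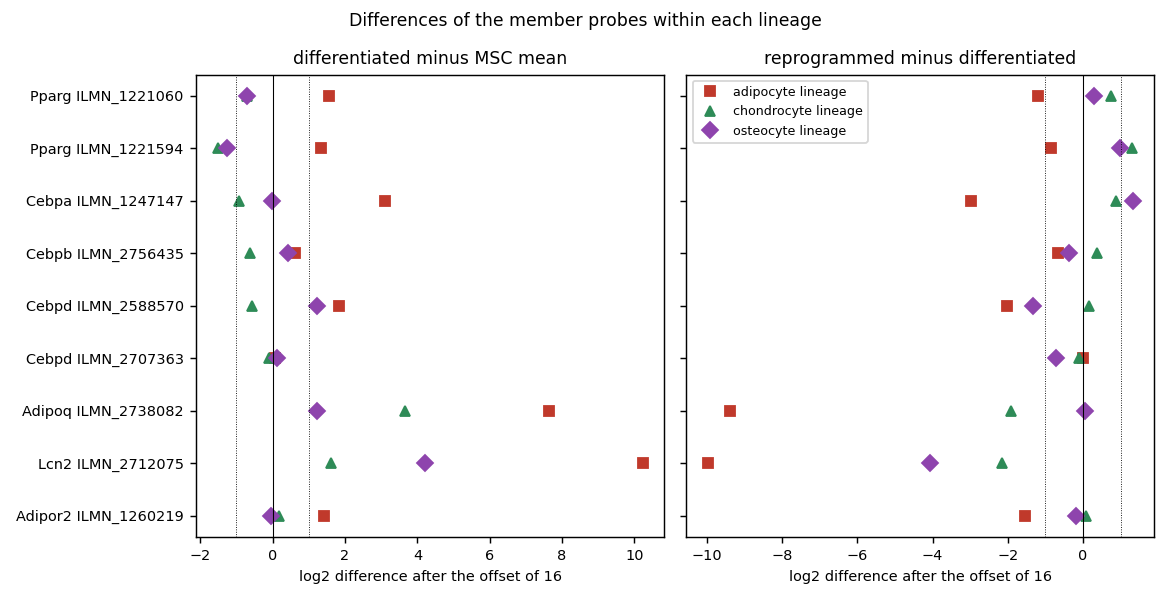
Log2 differences after the offset of 16 (x axis) for the 9 member probes (y axis), with 1 symbol per lineage: differentiated minus the MSC mean on the left and reprogrammed minus differentiated on the right. Dotted lines mark differences of 1. Adipocyte differences for Adipoq and Lcn2 lie at 7.64 and 10.24 on the left and at -9.37 and -9.98 on the right, and those of Cebpb stay within 1 in every lineage. Values under 6 are plotted as measured, so that differences involving them are not exact.

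Reprogrammed adipocytes were set against differentiated adipocytes to see whether the fat cell programme was still present. Of the 9 member probes 6 were lower in the reprogrammed cells and none was higher, while 16.1% of all probes were lower and 17.0% higher. By gene this was 5 of 7. With values under 6 set to 6, 5 of the 9 probes were lower, beside 12.7% of all, the dim Cebpd probe dropping out. Lcn2 was at least 374-fold and Adipoq at least 302-fold lower. Cebpa differed by -2.98, Adipor2 by -1.54 and Pparg by -1.20 and -0.86 with its 2 bright probes, while Cebpb differed by -0.66 and the bright Cebpd probe by 0.01. In the other lineages the direction was not the same for every member. In chondrocytes Adipoq differed by -1.92 and Pparg's second probe by 1.31, and 2 member probes were lower and 1 higher beside 9.28% and 10.5% of all probes. The other lower one was Lcn2, under 6 on both arrays, and with values under 6 set to 6 1 was lower and 1 higher (6.99% and 7.17% of all). In osteocytes Lcn2 was at least 5.68-fold lower, Cebpa at least 2.44-fold higher and Adipoq differed by 0.06. There 2 member probes were lower and 1 higher beside 9.26% and 10.4%, and with values under 6 set to 6 the dim Cebpd probe dropped out, leaving 1 lower and 1 higher (7.03% and 7.44% of all).

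Comparisons of the reprogrammed arrays with MSCs were added after the values had been seen. In reprogrammed adipocytes 1 of 9 member probes was lower than in both MSC arrays, Adipoq, and none was higher, beside 0.739% and 0.135% of all probes. Adipoq differed there by -1.73 from the MSC mean and by -1.05 from the nearer MSC array, and because the reprogrammed adipocytes read below 6 the measured ratio has only a lower bound of 1.51-fold. With values under 6 set to 6 no member probe was lower or higher there (0.52% and 0.0835% of all probes). In reprogrammed chondrocytes Adipoq was the single member probe higher than both MSC arrays, by 1.73 over their mean, and none was lower, beside 0.122% and 0.0193% of all probes. In reprogrammed osteocytes the single one was Cebpa and none was lower, beside 1.21% and 0.36%, and Adipoq differed there by 1.29 from the MSC mean and 0.61 from the nearer array. Adipoq in reprogrammed adipocytes was at least 4.30-fold below the mean of the other reprogrammed cells, the 1 member probe of 9 that was lower than in both, and none was higher, beside 2.09% and 0.392% of all probes. All other member probes at level differed from the MSC mean by less than 0.6 in each reprogrammed array.

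Among the secreted factors that are not members, angiotensinogen (Agt), a vasoactive peptide precursor made by fat and liver, read 9.33 on MSC d0 and 7.70 on MSC p4, 12.89, 8.89 and 7.32 on differentiated adipocytes, chondrocytes and osteocytes, and 4.33, 8.93 and 9.63 on the reprogrammed arrays in the same order. As with Adipoq, differentiated adipocytes were highest and reprogrammed adipocytes lowest.

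Across the 3 states, with lineages standing as the replicates of a state, no member probe passed the test. In limma fits over all 14082 probes at the level of 6 on at least 2 arrays, 8 member probes of 7 genes were tested. The lowest adjusted p among them was 0.406 for differentiated minus MSC and 0.137 for reprogrammed minus differentiated, and every adjusted p was 1 for reprogrammed minus MSC. In the whole table limma called 8 probes (0.0568%) in the first contrast, 116 (0.824%) in the second and none (0%) in the third, where 42 had an unadjusted p under 0.05.

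The spread between lineages was wide for the hormones that differed most. The Adipoq mean was 6.92 ± 0.96 in MSCs (SD, n = 2), 11.09 ± 3.24 in differentiated cells (SD, n = 3) and 7.35 ± 1.88 in reprogrammed cells (SD, n = 3), all on the offset scale. For differentiated minus MSC the difference was 4.18 (SE 1.75, limma unadjusted p = 0.0439, adjusted p = 0.454), with every differentiated array above both MSC arrays. For reprogrammed minus differentiated it was -3.75 (SE 1.56, limma unadjusted p = 0.0434, adjusted p = 0.201), and those groups overlapped.

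Lcn2 averaged 4.63 ± 0.16 in MSCs (SD, n = 2), 9.98 ± 4.43 in differentiated cells (SD, n = 3) and 4.58 ± 0.43 in reprogrammed cells (SD, n = 3) on the offset scale. The difference was 5.35 for differentiated minus MSC (SE 2.04, limma adjusted p = 0.406) and -5.40 for reprogrammed minus differentiated (SE 1.82, limma adjusted p = 0.137). The groups overlapped in neither contrast. Lcn2 entered the test only through the differentiated arrays, where it was high. Groups without overlap were found for 2 of 8 member probes in the first contrast, Adipoq and Lcn2, beside 10.5% of all probes with every differentiated array higher, and for 1 of 8 in the second, Lcn2, beside 13.5% with every reprogrammed array lower. On differentiated chondrocytes Lcn2 read 5.90, under 6 like its MSC and reprogrammed values. With values under 6 set to 6 its groups meet at 6, leaving only Adipoq in the first contrast and no member in the second. The share of all probes without overlap at that setting was not computed.

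With the array set as a block in the fit, the Adipoq difference was 4.86 for differentiated minus MSC and -5.11 for reprogrammed minus differentiated, and that of Lcn2 was 5.24 and -5.18, each with a limma adjusted p of 1. Within the d set alone, all 3 differentiated arrays were above MSC d0 for both genes. Within the p set, reprogrammed adipocytes were below MSC p4 and the other reprogrammed arrays above it for Adipoq. The remaining members had smaller differences, from -0.48 for the second Pparg probe to 0.72 for Cebpa in differentiated minus MSC, and these averages join an adipocyte array with arrays of other lineages whose differences were near 0 or of opposite sign. Without the differentiated adipocyte array the Cebpa difference was -0.48 and that of the first Pparg probe -0.71.

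Genes known to act downstream of Pparg or in lipid storage were higher in the adipocyte array. Of 21 such genes at level, 17 were higher in differentiated adipocytes than in both MSC arrays and 1 was lower, with a median difference of 3.18 against -0.03 over all 9069 genes, of which 9.34% were higher and 10.3% lower. Of the 21, 8 reached the level only on the differentiated adipocyte array, so they entered through the array where they were high. With values under 6 set to 6, 14 were higher, beside 7.92% of all genes. Cidec, which enlarges lipid droplets, was at least 190-fold higher, Adig, an adipocyte protein of lipid droplets, at least 25.6-fold, and Dgat2, which makes triglyceride, differed by 6.82. In reprogrammed adipocytes 18 of the 21 were lower than in differentiated adipocytes and 1 was higher, with a median of -3.29 (16.7% and 16.5% of all genes). With values under 6 set to 6, 15 were lower, beside 13.7% of all genes. The gene that went the other way in both comparisons was Elovl6, which elongates fatty acids, at least 4.56-fold lower in differentiated adipocytes than in MSCs. Against MSCs, 1 of the 21 was lower in reprogrammed adipocytes and none was higher, beside 0.882% and 0.143% of all genes. It was Lpl, lipoprotein lipase, at 14.23 and 13.62 on the MSC arrays and 12.30 on reprogrammed adipocytes. The lists of genes compared here were drawn up from textbook roles with earlier results of these data known. Elovl6, Lpl, Klf6, Ddit3 and Cap1 are named for the direction of their difference, seen after the fact.

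Other transcription factors that promote fat cell formation were mixed. Of 16 at level, 6 were higher and 2 lower in differentiated adipocytes than in MSCs, with a median of 0.94, beside 9.34% and 10.3% of all genes. Of the 16, 2 reached the level only on the differentiated adipocyte array, Ppargc1b among them, so they entered through the array where they were high. With values under 6 set to 6, 5 were higher and 2 lower, beside 7.92% and 7.34% of all genes. The coactivator Ppargc1b was at least 7.21-fold higher, and Nr1h3, the liver X receptor alpha, differed by 4.32. The 2 lower ones were Klf4, an early activator of Cebpb (-2.33), and Klf6 (-1.49). Of the factors that restrain fat cell formation, 7 of 20 at level were lower in differentiated adipocytes and 1 was higher, with a median of -0.54, beside 10.3% and 9.34% of all genes. With values under 6 set to 6, 6 were lower and 1 higher, beside 7.34% and 7.92% of all genes. The higher one was Ddit3, a stress-induced C/EBP relative that blocks C/EBP binding (2.03). Klf2, which represses the Pparg promoter, was at least 16.4-fold lower, Wnt10b, a Wnt ligand that blocks adipogenesis, at least 2.74-fold lower, and Dlk1, the preadipocyte surface protein Pref-1, at least 7.02-fold lower. In reprogrammed adipocytes 8 of these 20 were higher than in differentiated adipocytes and 3 lower, with a median of 0.75. Of all genes, 16.5% were higher and 16.7% lower there. With values under 6 set to 6, 8 were higher and 2 lower, beside 13.1% and 13.7% of all genes. Against MSCs none of the 20 was counted in either direction, where only 0.143% of all genes were higher and 0.882% lower.

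Among paralogs of the members, Cebpg, a C/EBP protein without an activation domain of its own, differed by 1.31 between differentiated adipocytes and MSCs and Ppard, a related nuclear receptor, by 0.18. Of 8 receptors for fat cell hormones at level, 2 were higher in differentiated adipocytes, Adipor2 and the insulin receptor Insr (2.59), and 1 was lower, the resistin-binding protein Cap1 (-1.01), beside 9.34% and 10.3% of all genes. Igf1r, the receptor for insulin-like growth factor, differed by -1.26 from the MSC mean but not by that size from each MSC array.

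**Figure D3:**
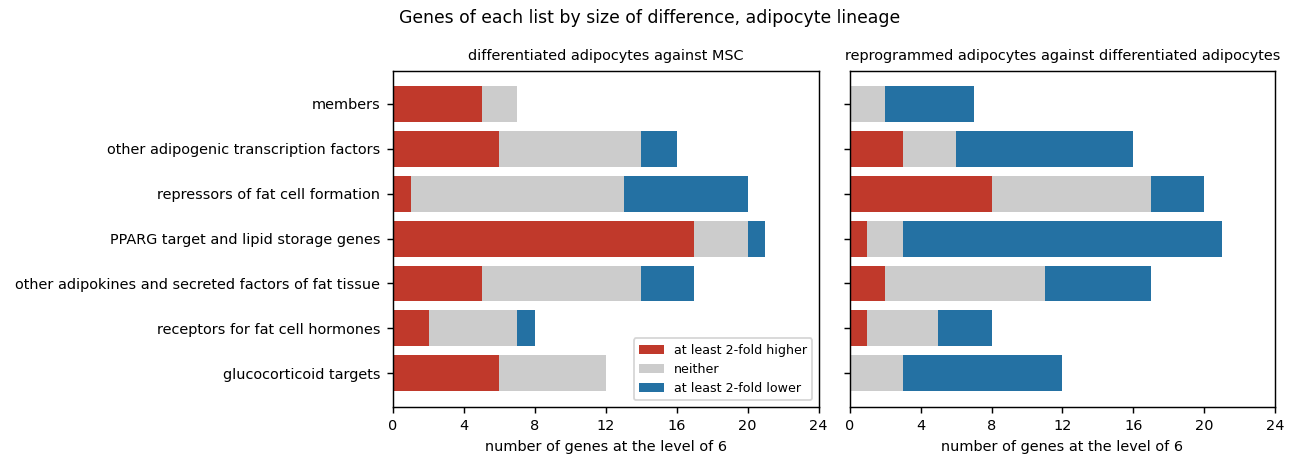
Number of genes at the level of 6 (x axis) in each list (y axis) that were at least 2-fold higher, at least 2-fold lower or neither, with differentiated adipocytes against both MSC arrays on the left and reprogrammed against differentiated adipocytes on the right. Of the 21 PPARG target and lipid storage genes, 17 are higher on the left and 18 lower on the right.

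Although no member passed, some other secreted factors of fat tissue did. Of the 17 such genes at level, 5 were higher and 3 lower in differentiated adipocytes than in MSCs, with a median of -0.03, beside 9.34% and 10.3% of all genes. Of the 17, 2 reached the level only on the differentiated adipocyte array, Retnla among them, so they entered through the array where they were high. With values under 6 set to 6, 5 were higher and 2 lower, beside 7.92% and 7.34% of all genes. Agt differed by 4.31, Retnla, a resistin-like protein, was at least 5.39-fold higher, and Inhba, the activin A subunit, differed by -3.55. In the limma test of reprogrammed minus differentiated, 12 of these genes were tested by their brightest probe, of which 1 fell and 1 rose, where 0.412% of all probes fell and 0.412% rose.

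Nampt, the NAD salvage enzyme also called visfatin, read 9.13 and 8.98 on the MSC arrays with probe ILMN_2821850, 11.48, 10.78 and 11.01 on differentiated adipocytes, chondrocytes and osteocytes, and 8.97, 8.83 and 9.12 on the reprogrammed arrays in the same order. The differentiated arrays of all lineages stood above all others, without overlap. Nampt fell by 2.08 on the log2 scale in reprogrammed against differentiated cells (SE 0.25, limma adjusted p = 0.0183). A second Nampt probe, ILMN_1232209, differed by -1.76 and did not pass (limma adjusted p = 0.0665).

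Rarres2, the chemoattractant adipokine chemerin, read 5.57 and 4.75 on the MSC arrays with probe ILMN_3003130, 8.16, 8.44 and 6.95 on differentiated adipocytes, chondrocytes and osteocytes, and 4.98, 4.45 and 5.51 on the reprogrammed arrays. All 3 differentiated arrays were above all others. The probe fell by 2.37 in reprogrammed against differentiated cells (SE 0.40, limma adjusted p = 0.046), a further probe, ILMN_2596655, fell by 3.05 (SE 0.44, limma adjusted p = 0.0317), and the brightest on average, ILMN_2588295, differed by -0.55 (limma adjusted p = 0.449). Both Rarres2 probes that passed did so at level only on the differentiated arrays, so they entered the test through the group where they were high.

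Ccl2, a monocyte chemoattractant secreted by stromal and fat cells, showed the opposite pattern. It read 8.22 and 9.89 on the MSC arrays, 6.00, 4.76 and 5.02 on differentiated adipocytes, chondrocytes and osteocytes, and 8.36, 7.998 and 8.63 on the reprogrammed arrays. Every differentiated array was below every other array, and Ccl2 rose by 2.62 in reprogrammed against differentiated cells (SE 0.44, limma adjusted p = 0.0463).

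**Figure D4:**
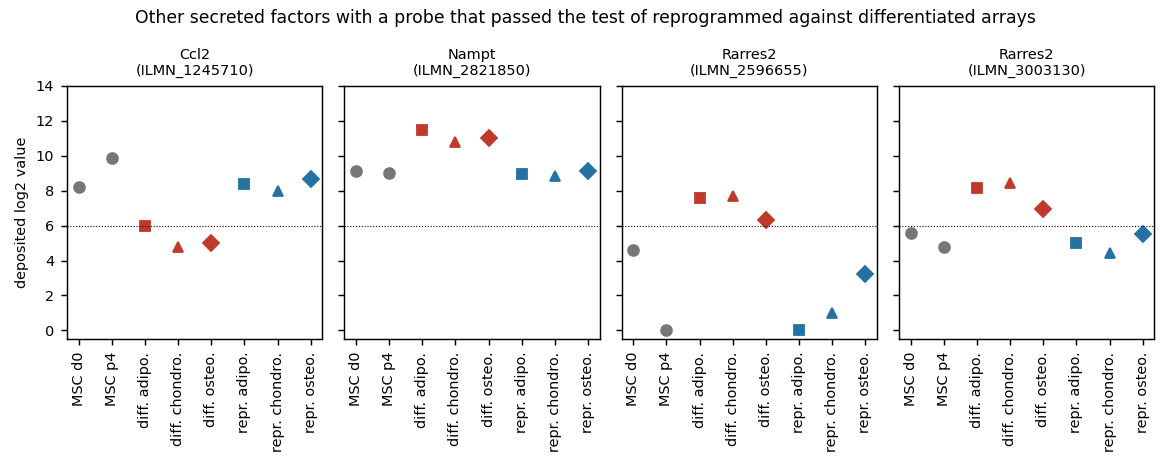
Deposited log2 values (y axis) on each of the 8 arrays (x axis) for Ccl2, Nampt and 2 probes of Rarres2, the secreted factors with a probe that passed limma's test of reprogrammed against differentiated arrays. Symbols are grey for MSCs, red for differentiated and blue for reprogrammed cells, and the dotted line marks 6. Differentiated arrays lie lowest for Ccl2, at 4.76 to 6.00, and highest for Nampt, at 10.78 to 11.48.

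Glucocorticoid responsive genes were read alongside, because glucocorticoids are a usual component of differentiation media and an inducer of Cebpd, and the labels name no medium. Of 12 such genes tested, 7 fell in reprogrammed against differentiated cells by their brightest probe in limma's test and none rose, with a median of -1.91 against -0.04 over all genes, and 0.412% of all probes fell. Among the 7, Mt2 and Zbtb16 reached the level of 6 only on the differentiated arrays, so they entered the test through the group where they were high, as did 1 of the Per1 probes, ILMN_2813487. Fkbp5, a chaperone of the glucocorticoid receptor, read 6.76 and 7.31 on the MSC arrays, 11.43, 11.38 and 11.77 on differentiated adipocytes, chondrocytes and osteocytes, and 7.49, 7.25 and 6.88 on the reprogrammed arrays. All differentiated lineages stood together, without overlap with the rest. Fkbp5 rose by 4.33 in differentiated against MSC arrays (SE 0.29, limma adjusted p = 0.00501) and fell by 4.18 in reprogrammed against differentiated arrays (SE 0.26, limma adjusted p = 0.00276). The first of these calls was lost with the array set as a block (4.58, limma adjusted p = 0.0597) and with only the arrays of the 2 states (limma adjusted p = 0.197). The block sets the differentiated arrays against MSC d0 alone, so leaving out MSC p4 is the same comparison (4.58).

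Also past the test were the circadian repressor Per1 (-2.02 and -2.04 with its 2 probes), Tsc22d3, which encodes the glucocorticoid induced leucine zipper (-3.05 and -3.12), the metallothioneins Mt1 (-1.80) and Mt2 (-2.58) and the zinc finger factor Zbtb16 (-2.30), with limma adjusted p from 0.017 to 0.0449. Klf9, a Kruppel-like factor that is also on the list of adipogenic factors, fell by 1.36 (SE 0.21, limma adjusted p = 0.0371), the 1 of 14 tested there that passed. By size against MSCs in differentiated adipocytes, Glul, glutamine synthetase, was at least 12.0-fold higher, Fkbp5 differed by 4.23 and Tsc22d3 by 2.69. These glucocorticoid targets were high on the same 3 arrays as Nampt and 2 of the Rarres2 probes, which include the 2 on which Lcn2 reached the level of 6. All but Glul passed the test of reprogrammed minus differentiated cells, so this shared pattern is in part fixed by the choice of genes named. Among listed targets that did not pass, some, unlike Glul, were not higher on all 3 of these arrays than elsewhere. The part of such a response in those values was not tested.

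None of the calls for Nampt, Rarres2, Ccl2, Klf9 or the glucocorticoid targets remained with the array set as a block, where limma called 0 probes in this contrast and 288 had an unadjusted p under 0.05. In that fit Nampt differed by -1.93, the 2 Rarres2 probes by -1.80 and -1.81, and Ccl2 by 1.01, each with a limma adjusted p of 1. Nampt also missed the threshold without any 1 of the reprogrammed arrays, with limma adjusted p of 0.113 without osteocytes, 0.123 without adipocytes and 0.128 without chondrocytes. The same omissions gave Ccl2 an adjusted p of 0.152, 0.222 and 0.18, and without the differentiated chondrocyte or osteocyte array it was 0.0697 or 0.0818, while its log2 difference stayed between 2.44 and 2.89. The calls of both Rarres2 probes and of Klf9 were also lost without any 1 reprogrammed array and without the differentiated chondrocytes, that of Klf9 without the differentiated osteocytes (limma adjusted p = 0.0657) and that of Rarres2 probe ILMN_3003130 without either MSC array (limma adjusted p = 0.0519). Fkbp5 kept its call for reprogrammed minus differentiated under 14 of 15 alternatives, the exception being the block (-4.67, limma adjusted p = 0.483). The other glucocorticoid targets that passed lost theirs under 5 to 14, and with the block Per1 differed by -1.94 and -1.87, Tsc22d3 by -2.47 and -2.94, Mt1 by -1.50, Mt2 by -2.72, Zbtb16 by -1.81 and Klf9 by -1.22. The number of probes called in the whole contrast was 1, 9 and 7 without reprogrammed osteocytes, adipocytes and chondrocytes, 76 without differentiated chondrocytes and 373 without differentiated adipocytes.

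The genes most like each member over the 8 arrays, among 8310 genes compared by Pearson correlation, are given as a description, since these points share a normalization and 1 array often sets the range. For Pparg they were Sdhc (0.990), Mrpl46 (0.988) and Pecr (0.983), which kept 0.956 to 0.993 without the differentiated adipocyte array. For Cebpa they were Armt1, Ndufa12 and Cpeb4 (0.976 to 0.983), for Cebpb Usp8, Adck5 and Adh5 (0.964 to 0.990) and for Cebpd Mdn1, Simc1 and Ipo8 (0.946 to 0.974). For Adipoq they were Hnrnpul2, Ube2a and Acss2 (0.943 to 0.952), which had 0.805 to 0.884 without that array, and for Lcn2 1600014C10Rik, Dlc1 and Megf9 (0.986 to 0.996).

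Between members the correlations rested largely on the differentiated adipocyte array. Pparg and Cebpa had r = 0.757 over 8 arrays and 0.137 over the 7 without it. Adipoq and Lcn2 had 0.820 and 0.278, Pparg and Adipoq 0.502 and -0.582, and Adipoq and Adipor2 0.883 and 0.546. Outside that array Adipoq did not follow Pparg or Cebpa.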

How the data were processed

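Total RNA was extracted with Qiagen RNeasy and labelled with biotin for Illumina arrays, per the labels' protocols. The values are the authors' deposited log2 values. Software, background correction and normalization were not given in the sources used here. Every column had a median of 3.901, a maximum of 15.05 and a floor of 0. A further table had 16 value columns that match no sample label, and the filter planned on its detection p-values gave way to a level.

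Symbols came from the platform annotation, where 34885 probes had 1 symbol, 18 several and 10378 none. For 34807 probes the symbol was then taken from RefSeq (GRCm38.p6) by Entrez identifier, whether or not it changed. Values x were used as log2(2^x + 16). States were compared with limma 3.58.1 (R 4.3.3; lmFit, eBayes, two-sided, Benjamini-Hochberg at 0.05) over all 8 arrays and the 14082 probes at 6 or more on at least 2 arrays, and single arrays by size over 15568 probes at 6 on at least 1 array. A bound sets a value under 6 at 6.32, the level of 6 after the offset. The fit was also run on simulated data with independent noise and no lineage or array set differences. That run checks the code and does not show how the fit performs on arrays such as these. With these array numbers the precision is low.

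All probes of the members are given. From each other list that is not a cell type marker list the text names the 3 genes with the largest absolute difference between differentiated adipocytes and the MSC mean and every gene that passed a state test, and for 6 members the 3 genes of highest correlation. The members and lists were chosen with earlier results of these data known. Alternatives were the array set or the lineage as a block, no offset, other filters, 1 probe per gene, only the states compared, MSC d0 alone, values under 6 set to 6 and each array left out.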

Additional observations from a re-analysis of the deposited data

Results flagged for a closer look

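Lineages that went opposite ways are listed here. Each rests on 1 array per cell type, and the difference between lineages was not tested. The second Pparg probe, ILMN_1221594, was above the MSC mean in differentiated adipocytes (log2 difference 1.34) and below it in differentiated chondrocytes (-1.52) and osteocytes (-1.25). Cebpa was lower in reprogrammed than in differentiated adipocytes (-2.98) and higher in reprogrammed than in differentiated osteocytes (1.33). Adipoq was below the MSC mean in reprogrammed adipocytes (-1.73) and above it in reprogrammed chondrocytes (1.73) and osteocytes (1.29), where the osteocyte value is within the 1.36 by which the MSC arrays differed. Cebpa in differentiated osteocytes and Adipoq in reprogrammed adipocytes and on MSC d0 read under 6, so these differences are of the measured signals and their ratios have only bounds. No group had enough arrays to look for an array that stands apart within its group.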

How the results depend on the processing

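No member probe passed limma's test under any alternative run. Adjusted p ranged from 0.186 to 1 for differentiated minus MSC, from 0.0651 to 1 for reprogrammed minus differentiated and from 0.999 to 1 for reprogrammed minus MSC. Of 341 alternative values of members, 308 kept their direction and 33 reversed. Some of these values coincide. With the array set as a block, differentiated minus MSC is the comparison without MSC p4, and reprogrammed minus MSC that without MSC d0. The cause of these changes was not tested.

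Counts of called probes varied more. For differentiated minus MSC, 8 probes were called, against 0 with the array set as a block (541 at an unadjusted p under 0.05), 2 with no offset, 2 with no filter, 5 with 1 probe per gene, 0 with only the arrays of the 2 states (905 unadjusted) and 0 to 106 when leaving out 1 array. For reprogrammed minus differentiated, 116 were called, against 0 with the array set as a block, 48 with no filter, 54 with 1 probe per gene, and 1 to 373 when leaving out 1 array. The labels give no replicate numbers that pair arrays, and with lineage as a replicate block over the 6 differentiated and reprogrammed arrays 17 were called, none of them a member. Reprogrammed minus MSC gave 0 calls throughout. By size, 1487 probes differed in differentiated chondrocytes and 1050 in osteocytes against both MSC arrays, and 2502 and 1578 against MSC d0 alone.

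With the array set as a block these member values reversed: Cebpb at -0.049 for differentiated minus MSC, 0.16 for reprogrammed minus differentiated and 0.11 for reprogrammed minus MSC, the second Pparg probe at -0.44 for reprogrammed minus differentiated, and Lcn2 at 0.057 and Adipoq at -0.25 for reprogrammed minus MSC. With no offset the second Pparg probe was at 0.0003 for reprogrammed minus MSC. When leaving out 1 array, differentiated minus MSC ranged from -0.71 to 0.43 and from -1.39 to 0.045 for the Pparg probes, from -0.48 to 1.54 for Cebpa, from -0.086 to 0.16 for Cebpd and from -0.099 to 0.52 for Cebpb. Reprogrammed minus differentiated ranged from -0.44 to 0.70 and from -0.046 to 1.38 for the Pparg probes, from -1.08 to 0.93 for Cebpa and from -0.60 to 0.017 for Cebpb. Reprogrammed minus MSC ranged from -0.37 to 0.35 and from -0.46 to 0.46 for the Pparg probes, from -0.18 to 0.058 for Adipor2, from -0.21 to 0.19 for Lcn2, from -0.25 to 1.51 for Adipoq and from -0.27 to 0.11 for Cebpb. Values under 6 have only a bound, which limits Lep, Retn and the dim Cebpd probe on nearly every array, Lcn2 outside differentiated adipocytes and osteocytes, Cebpa on 4 arrays and Adipoq on MSC d0 and reprogrammed adipocytes. With values under 6 set to 6, the counts of the 7 planned single-array comparisons stayed within 1.5 times.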
